A study of Arabidopsis thaliana with 12 samples.

Results

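The effect of a val2 mutation on seedlings that already carry a val1 mutation was followed in 6 of the 12 RNA sequencing libraries of an Arabidopsis thaliana series, the 3 titled val1 val2 against the 3 titled val1. The groups were the double mutant val1 val2 and the single mutant val1, so both carry the val1 mutation, and 6 further libraries, 3 of the single mutant val2 and 3 of the wild type (WT), served to ask what the same mutation does when VAL1 is intact. Seedlings were whole and 14 days old, grown on sucrose plates in long days without further treatment, and the design text calls the 3 libraries of each genotype biological replicates. The alleles and the accession of the lines are not given in the labels. Levels are in FPKM, a unit that divides fragments by transcript length and by the library's total. A gene with no assembled locus assigned to it in a library is listed at 0. As whole seedlings were used, fewer cells of a type and less RNA per cell cannot be told apart.

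VAL1, also called HSI2, and VAL2, also called HSL1, are closely related nuclear repressors with a plant B3 domain, which binds the RY element of seed gene promoters. They are known for shutting down the embryonic programme after germination, for recruiting histone deacetylases and Polycomb repressive complexes, and for silencing the flowering repressor gene FLC. The activators they act against are LEC1, LEC2, FUS3 and ABI3, which drive the storage of protein and oil and the acquisition of desiccation tolerance in the embryo.

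The mutated genes were examined first. VAL1 (AT2G30470) stood at 13.2, 11.1 and 22.6 FPKM in val1 val2 and at 12.7, 5.18 and 5.07 FPKM in val1, and the 2 groups overlapped (log2 change 0.99, SE 0.40, limma adjusted p = 0.0767). Under 7 alternatives VAL1 was called higher, at an adjusted p of 0.0405 after median ratio scaling and 0.0235 without val1 replicate 1. VAL2 (AT4G32010) stood at 12.7, 13.2 and 12.6 FPKM in val1 val2 and at 14.4, 11.0 and 15.2 FPKM in val1, again overlapping (log2 change -0.06, SE 0.15, adjusted p = 0.757). In val2 and WT its mean was 10.5 and 20.5 FPKM. VAL3, a further member of the family, was listed at 0, 0 and 1.13 FPKM in val1 val2 and at 0.526, 1.13 and 0.619 FPKM in val1, too low for the test.

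Gene values, which weight a locus by the part of the gene it covers, therefore do not separate the 2 genotypes. With the FPKM of the largest locus as listed, VAL1 was called higher in val1 val2 (log2 change 1.08, limma adjusted p = 0.00329). In the deposited coordinates (TAIR10), val1 val2 replicates 1 and 2 held only part of VAL1, as a locus that starts at 12982816 on chromosome 2 and ends at 12985229 in one and 12985228 in the other. That locus stood at 26.6 and 22.3 FPKM in these 2 libraries. Val1 replicates 2 and 3 had a locus with that same start, at 10.05 and 9.59 FPKM, preceded by a weak one at 0.504 and 0.949 FPKM. By contrast, single loci spanned nearly all of VAL1 in val1 val2 replicate 3 (24.3 FPKM) and in val1 replicate 1 (13.7 FPKM). On chromosome 4, the VAL2 locus of val1 val2 replicate 1 ended at 15483301, whereas those of val1 val2 replicates 2 and 3 ran on to 15485127 and 15485273, about as far as the 3 val1 loci, which ended at 15485138 to 15485278. Among the libraries with VAL1 intact, one locus spanned the gene in val2 replicates 2 and 3 and in all 3 WT libraries, and the start at 12982816 was found in 4 of the 6 libraries that carry val1 and in none of the others. For VAL2, the main loci of val2 replicates 2 and 3 ended at 15483528 and 15483308, near that of val1 val2 replicate 1. In val2 replicate 2 a weak locus followed, from 15483700 to 15485116 at 0.716 FPKM. Val2 replicate 1 ran to 15485351 and the WT loci to 15485150 to 15485353. The short form was thus found in 3 of the 6 libraries that carry val2. By these loci val1 val2 replicates 2 and 3 looked like libraries with VAL2 intact, but so did val2 replicate 1, titled a val2 mutant. The labels do not state where the mutations lie. Groups are named by their titles, and the main counts were repeated without the 2 libraries with an unbroken VAL1 locus.

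The second mutation was followed by changes in a large part of the transcriptome. Of 17672 genes tested with limma, 9093 (51.5%) passed an adjusted p of 0.05 (Benjamini-Hochberg), 4075 (23.1%) higher and 5018 (28.4%) lower in val1 val2 than in val1. By at least 2-fold, 2602 (14.7%) rose and 2776 (15.7%) fell. Folds and log2 changes are on the scale of log2(FPKM + 1), which understates the change of genes at low levels. Without val1 val2 replicate 3 and val1 replicate 1, 9209 of 17078 genes were called, of which 7937 were also called with all 6 libraries. The median log2 change of all genes was -0.11, and scaling by the median ratio moved it by 0.13 to 0.02. The share of calls that were higher in val1 val2 was 44.8% as deposited and 52.3% after that scaling.

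Val1 val2 libraries were less alike than val1 libraries. Their profiles correlated at 0.919 to 0.965 among themselves, against 0.975 to 0.978 among val1 libraries (Pearson, across 16551 genes of the same libraries, a description). Val1 val2 replicate 3 lay nearest to val1, with correlations of 0.775 to 0.784. Replicate 2 followed with 0.689 to 0.701, and replicate 1 was farthest with 0.648 to 0.661. Replicate 3 held the val1 val2 value nearest to val1 in 65.2% of 2524 genes that rose by at least 2-fold and in 84.1% of 2681 that fell by as much. The 10 most abundant loci took 10.9 to 14.8% of the FPKM in val1 val2 and 5.51 to 6.45% in val1.

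**Figure D1:**
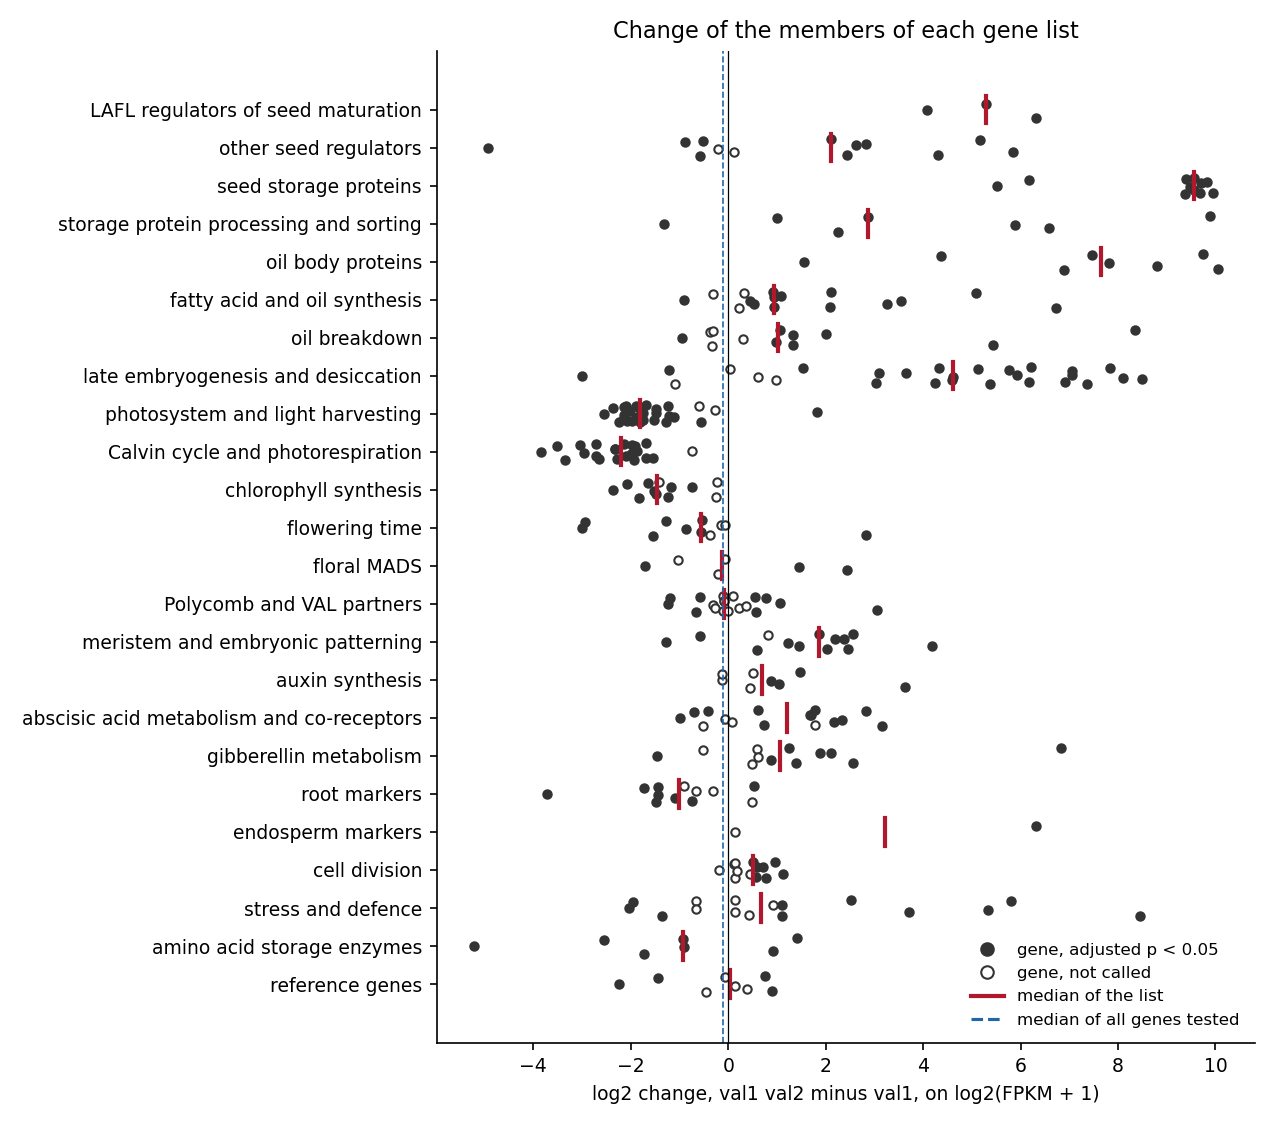
Log2 change, val1 val2 minus val1, of every tested member of 24 gene lists (x axis, on log2(FPKM + 1)), 1 point a gene, filled where the limma adjusted p is under 0.05, with the median of each list as a red bar and the median of all genes tested (-0.11) as a dashed line. Seed lists lie to the right, up to 10.04 for OLEO1, while photosystem, Calvin cycle and chlorophyll genes lie to the left with medians of -1.82, -2.20 and -1.46.

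Central regulators of seed maturation appeared in val1 val2 and were listed at 0 in every val1 library. FUS3, a B3-domain activator, stood at 89.9, 79.6 and 66.8 FPKM in val1 val2 and at 0 in val1 (log2 change 6.31, SE 0.15, adjusted p = 4.53e-06). ABI3, the B3-domain factor that couples the programme to abscisic acid, stood at 41.6, 44.6 and 29.3 FPKM in val1 val2 and at 0 in val1 (adjusted p = 1.29e-05). LEC1, a CCAAT-binding factor subunit that acts upstream of the B3 activators, stood at 18.7, 15.0 and 14.2 FPKM in val1 val2 and at 0 in val1 (adjusted p = 1.57e-05). All 3 were also listed at 0 in all val2 and WT libraries. LEC2, the remaining B3-domain activator, reached 2.52, 1.62 and 0.883 FPKM in val1 val2, stood at 0 in val1, and fell short of the filter for a test. L1L, the closest relative of LEC1, had 79.2 FPKM in val1 val2 replicate 1 and 0 in val1, and in val1 val2 replicates 2 and 3 its value was left missing. Within val1 val2 the order of the 3 tested genes was FUS3, ABI3 and LEC1, with no overlap between neighbours.

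Among 13 tested regulators that act with or below these, 7 rose and 4 fell, against 23.1% and 28.4% of all genes. The count of falls was 2 on leaving out any 1 library other than val1 val2 replicate 3. DOG1, which sets the depth of seed dormancy, stood at 138, 105 and 49.8 FPKM in val1 val2 and at 0, 1.03 and 0.931 FPKM in val1 (log2 change 5.85, SE 0.44, adjusted p = 0.00019). DPBF2, a bZIP factor of the abscisic acid response, stood at 41.5, 37.6 and 27.9 FPKM in val1 val2 and ABI4, an AP2 factor of that response, at 22.3, 20.4 and 14.5 FPKM, and both were listed at 0 in val1. In each of these genes val1 val2 replicate 3 was the lowest of its group and the groups stayed apart. AGL15, a MADS-box gene of embryos, stood at 93.8, 81.0 and 55.2 FPKM in val1 val2 and 18.6, 17.1 and 14.6 FPKM in val1, against means of 3.37 FPKM in val2 and 3.06 FPKM in WT (log2 change 2.1, SE 0.22, adjusted p = 0.000654). WRI1, which switches on fatty acid synthesis in seeds, stood at 49.8, 52.5 and 25.4 FPKM in val1 val2 and at 5.91, 6.04 and 5.44 FPKM in val1 (log2 change 2.61, adjusted p = 0.000725). Its relative WRI4, known for wax synthesis in stems, went the other way, with 0, 3.42 and 0 FPKM in val1 val2 and 51.5, 48.9 and 46.9 FPKM in val1 (log2 change -4.93, SE 0.57, adjusted p = 0.000985). AGL15 and WRI1 were chosen after their values were seen.

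Storage protein genes took a larger share of the summed gene FPKM in val1 val2 than any other list. Shares of lists are of the summed FPKM of all genes in a library, not of its total over all loci. All 11 tested members rose, against 23.1% of all genes, with a median log2 change of 9.56. Together the 12 listed genes took 4.27, 13.7 and 8.62% of the summed gene FPKM of the val1 val2 libraries, against 0.0170 to 0.0179% in val1. The lowest of these shares, in val1 val2 replicate 1, lacks SESA1 to SESA4 and AT1G03890, whose values were missing there. For want of SESA1 to SESA4, 7 genes were tested and called without val1 val2 replicate 2 and likewise without replicate 3. CRA1, a 12S globulin (cruciferin), stood at 9319, 9000 and 6237 FPKM in val1 val2 and 8.95, 8.90 and 8.58 FPKM in val1 (log2 change 9.68, SE 0.19, adjusted p = 4.53e-06). CRC, another cruciferin, reached 9861, 10608 and 6836 FPKM in val1 val2, against 10.3, 11.9 and 10.3 FPKM in val1 (log2 change 9.57, adjusted p = 4.53e-06). SESA5, a 2S albumin, had 6880, 5304 and 2983 FPKM in val1 val2 and 3.53, 4.04 and 4.00 FPKM in val1 (log2 change 9.94, adjusted p = 8.94e-06). PAP85, a vicilin-like protein, had 3316, 2034 and 1029 FPKM in val1 val2 and a higher base in val1, at 23.3, 24.8 and 28.4 FPKM (log2 change 6.18, adjusted p = 0.000112). The highest of all was SESA3 in val1 val2, with 34013 and 15296 FPKM in replicates 2 and 3 and a missing value in replicate 1, against 25.0, 23.2 and 24.2 FPKM in val1. Its call (adjusted p = 3.85e-05) was lost when that missing value was entered as 0 (adjusted p = 0.361), and the list then had 7 higher members.

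Of the 11 tested storage genes, 10 were listed above 0 in val1, at a median of 0.113% of their level in val1 val2. All 3 val1 libraries held nearly the same traces. In val2 the list's share was 0.00157 to 0.00216%, and in WT all of its members were listed at 0. The source of these traces was not tested.

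Genes that process and sort storage proteins moved with them, 6 of 7 rising and 1 falling, against 23.1% and 28.4% of all genes. TIP3;1, the aquaporin of storage vacuole membranes, stood at 1610, 1492 and 797 FPKM in val1 val2 and 1.28, 0 and 0 FPKM in val1 (log2 change 9.88, SE 0.41, adjusted p = 2.21e-05). BETA-TIP, its close relative, stood at 633, 646 and 486 FPKM in val1 val2 and 7.02, 11.3 and 9.01 FPKM in val1 (adjusted p = 1.29e-05). The seed vacuolar processing enzyme betaVPE, which cleaves storage protein precursors, had 305, 299 and 142 FPKM in val1 val2 and 1.63, 1.31 and 1.42 FPKM in val1 (log2 change 6.59, adjusted p = 3.12e-05), whereas the vegetative form gammaVPE fell to 41.2, 40.1 and 50.9 FPKM in val1 val2, against 124, 117 and 92.4 FPKM in val1 (log2 change -1.31, adjusted p = 0.00143). GammaVPE was chosen after its values were seen.

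Oil body proteins rose in the same manner. All 8 tested genes were called higher, against 23.1% of all genes, with a median log2 change of 7.64. The list took 3.65, 2.75 and 1.68% of the summed gene FPKM in val1 val2, against 0.00529 to 0.00548% in val1. OLEO1, the main oleosin coating oil bodies, stood at 15391, 11618 and 7210 FPKM in val1 val2 and 9.13, 8.93 and 9.91 FPKM in val1, a ratio of means of 1223 (log2 change 10.04, SE 0.28, adjusted p = 8.18e-06). OLEO2 stood at 8019, 5217 and 2764 FPKM in val1 val2 and 5.16, 4.61 and 4.38 FPKM in val1 (adjusted p = 1.65e-05), and OLEO3 at 3841, 3416 and 2122 FPKM in val1 val2 and 12.3, 13.4 and 11.7 FPKM in val1 (adjusted p = 8.94e-06). CLO1, a calcium-binding caleosin of oil bodies, stood at 1022, 771 and 453 FPKM in val1 val2 and 0, 0.711 and 1.38 FPKM in val1. Val1 val2 replicate 1 was highest and replicate 3 lowest in all 4 of these genes.

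Of the enzymes that make oil, 12 of 16 rose (7 by at least 2-fold), against 23.1% of all genes, and 1 fell. FAE1, the elongase of the very long chain fatty acids of seed oil, stood at 146, 119 and 66.7 FPKM in val1 val2 and at 0 in val1 (log2 change 6.73, SE 0.29, adjusted p = 2.32e-05). The sucrose synthase SUS2 had 71.6, 60.7 and 51.9 FPKM in val1 val2 and 1.21, 0.844 and 0.454 FPKM in val1 (log2 change 5.10, adjusted p = 1.92e-05). ENO1, the plastid enolase, stood at 189, 217 and 148 FPKM in val1 val2 and 15.8, 12.1 and 16.7 FPKM in val1 (log2 change 3.54, adjusted p = 5.87e-05). KASI, a condensing enzyme of fatty acid synthesis in all tissues, chosen after its values were seen, had 134, 148 and 153 FPKM in val1 val2 and 121, 113 and 111 FPKM in val1, a difference that missed the threshold (log2 change 0.33, SE 0.12, adjusted p = 0.0571).

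Genes of oil breakdown, which seedlings use during establishment, were higher in 7 of 12 cases and lower in 1, against 23.1% and 28.4% of all genes. ICL, the isocitrate lyase of the glyoxylate cycle, stood at 1222, 1334 and 834 FPKM in val1 val2 and 2.54, 2.37 and 2.27 FPKM in val1 (log2 change 8.35, SE 0.20, adjusted p = 4.53e-06). MLS, the malate synthase of that cycle, stood at 130, 160 and 184 FPKM in val1 val2 and 2.96, 2.09 and 2.96 FPKM in val1 (log2 change 5.43, adjusted p = 1.2e-05). PCK1, which leads from oil to sugar, had 619, 486 and 511 FPKM in val1 val2 and 239, 199 and 204 FPKM in val1 (log2 change 1.32, adjusted p = 0.0011). The list's one called fall was the lipase gene SDP1, which starts oil breakdown, with 10.9, 10.1 and 13.2 FPKM in val1 val2 and 23.2, 21.1 and 24.1 FPKM in val1 (log2 change -0.94, adjusted p = 0.00259), a gene chosen after its values were seen.

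Of 27 tested late embryogenesis and desiccation genes, 21 rose and 2 fell, against 23.1% and 28.4% of all genes, and 4 were not called. In all val1 libraries 12 of the 27 were listed at 0. AT4G21020 stood at 303, 373 and 184 FPKM in val1 val2 and the dehydrin gene AT2G21490 at 299.9, 207 and 190 FPKM, both at 0 in val1 (adjusted p = 1.04e-05 and 5.04e-06). PER1, a seed peroxiredoxin, had 976 and 567 FPKM in val1 val2 replicates 2 and 3, with a missing value in replicate 1, against 0.837, 1.04 and 1.33 FPKM in val1, a call (adjusted p = 2.63e-05) lost when the missing value was entered as 0 (0.160). The falls were dehydrins known from cold and drought: COR47, a dehydrin of leaves, fell to 18.6, 19.9 and 77.9 FPKM in val1 val2, against 276, 222 and 266 FPKM in val1 (log2 change -3.00, SE 0.53, adjusted p = 0.00465). ERD14, another such dehydrin, was the other fall (log2 change -1.22, adjusted p = 0.0137). COR47 and ERD14 were chosen after their values were seen.

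**Figure D2:**
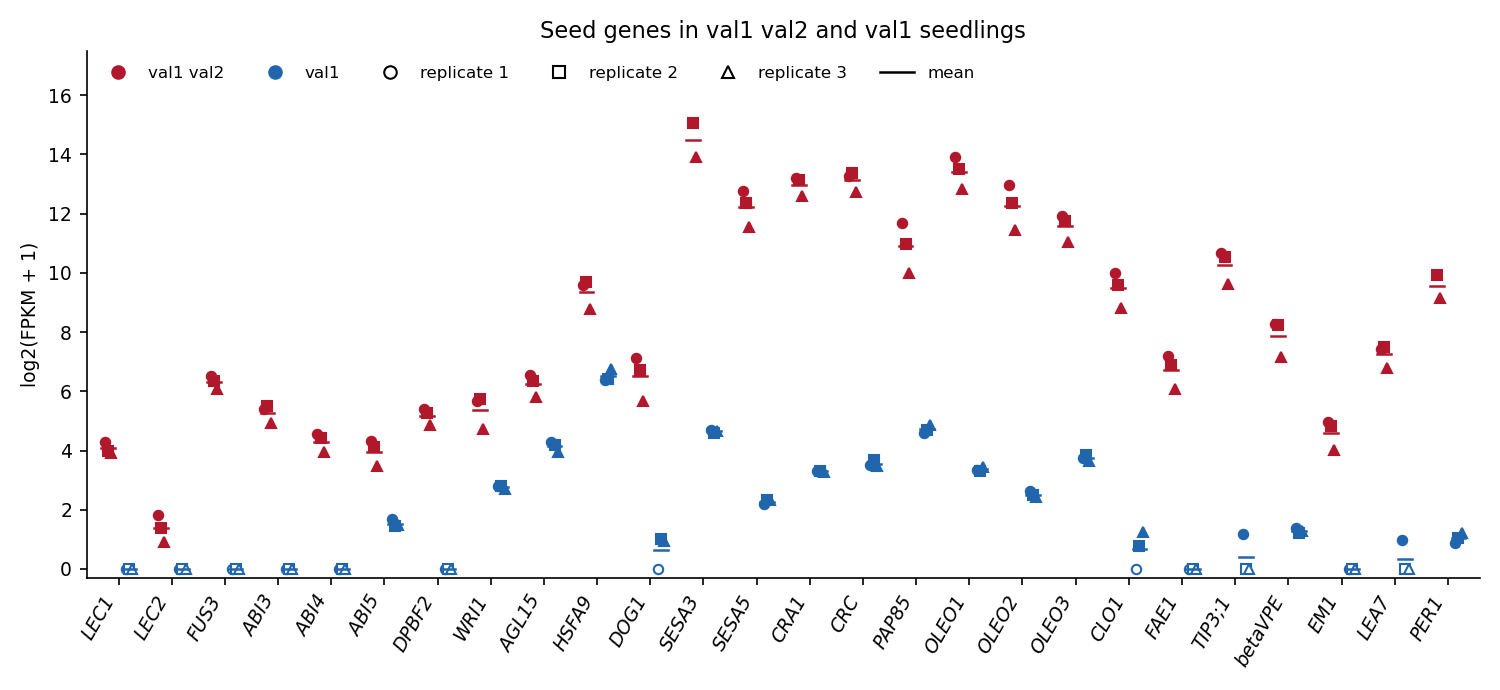
Levels of 26 seed genes in the 3 val1 val2 libraries (red, left of each pair) and the 3 val1 libraries (blue), as log2(FPKM + 1), with a bar at the mean, a symbol for each replicate number and open symbols at 0. The 26 genes are a selection that leaves out members of the seed lists that fell, such as WRI4, gammaVPE and COR47. Every val1 val2 value shown lies above every val1 value of its gene. Of all tested genes with values in all 6 libraries, 64.9% had groups without overlap, in either direction. Regulators such as FUS3 (89.9, 79.6 and 66.8 FPKM) lie well under reserve genes such as OLEO1 (15391, 11618 and 7210 FPKM).

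Photosynthesis genes fell as a block. Of 31 tested photosystem and light-harvesting genes, 28 fell (27 by at least 2-fold) and 1 rose, against 28.4% and 23.1% of all genes. The median log2 change was -1.82. The list's share of the summed gene FPKM was 0.804, 0.999 and 2.06% in val1 val2, against 4.42 to 4.67% in val1. PSBQ, of the oxygen-evolving complex, stood at 114, 168 and 380 FPKM in val1 val2 and 1221, 1021 and 1209 FPKM in val1 (log2 change -2.56, SE 0.42, adjusted p = 0.00364). LHCA3, a photosystem I antenna protein, had 98.4, 125 and 235 FPKM in val1 val2 and 699, 1125 and 507 FPKM in val1 (log2 change -2.36, adjusted p = 0.00433). PSAF, a photosystem I subunit, stood at 113, 172 and 352 FPKM in val1 val2 and 886, 869 and 954 FPKM in val1 (log2 change -2.24, adjusted p = 0.00456). In all 3 genes replicate 3 was the highest val1 val2 value and replicate 1 the lowest, with no overlap with val1. The one gene that rose was LHCB4.3, an antenna protein of photosystem II, at 122, 86.1 and 90.6 FPKM in val1 val2 and 31.4, 25.3 and 25.3 FPKM in val1 (log2 change 1.82, SE 0.18, adjusted p = 0.000535), chosen after its values were seen. Members of the LHCB1 and LHCB2 groups are nearly identical in sequence, so how reads were divided among them is uncertain.

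Carbon fixation and photorespiration genes fell further, 21 of 22 tested, against 28.4% of all genes, with a median log2 change of -2.20. Their shares of the summed gene FPKM were 0.317, 0.486 and 1.07% in val1 val2, against 2.77 to 3.10% in val1. RBCS2B, a small subunit of Rubisco, stood at 80.8, 121 and 466 FPKM in val1 val2 and 2351, 2549 and 2325 FPKM in val1 (log2 change -3.85, SE 0.61, adjusted p = 0.00315). RBCS1B, a near-identical copy with which reads may be shared, had 43.3, 105 and 422 FPKM in val1 val2 and 1241, 916 and 978 FPKM in val1, a call (adjusted p = 0.0165) lost without val1 replicate 1 (0.0574), val1 replicate 3 (0.0505) or val1 val2 replicate 2 (0.0597). AGT, an aminotransferase of photorespiration, stood at 21.5, 34.8 and 105 FPKM in val1 val2 and 484, 466 and 571 FPKM in val1 (log2 change -3.52, SE 0.54, adjusted p = 0.0027). HPR, the hydroxypyruvate reductase of that pathway, had 23.5 and 49.3 FPKM in val1 val2 replicates 1 and 2, with replicate 3 missing, and 353, 355 and 360 FPKM in val1 (adjusted p = 0.000879).

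Chlorophyll synthesis genes followed with 9 of 12 lower, against 28.4% of all genes, and a median log2 change of -1.46. The count was 5 without val1 val2 replicate 2 (of 11 tested) and 5 without val1 replicate 3. CHLD and CHLI2, subunits of the magnesium chelatase, fell: CHLD stood at 12.8, 23.1 and 43.3 FPKM in val1 val2 and 107, 154 and 119 FPKM in val1 (log2 change -2.36, adjusted p = 0.00446), and CHLI2 at 3.26, 5.20 and 8.99 FPKM in val1 val2 and 25.7, 23.6 and 29.4 FPKM in val1 (log2 change -2.08, adjusted p = 0.00242). CHLG, the chlorophyll synthase, had 16.7, 35.6 and 48.5 FPKM in val1 val2 and 103, 100.3 and 133 FPKM in val1 (adjusted p = 0.00827). PORC, a protochlorophyllide reductase, was at the edge of the threshold (adjusted p = 0.0456) and was not called under 10 alternatives, among them both other scalings and the loss of any val1 library. HEMA1, the first committed step of tetrapyrrole synthesis and chosen after its values were seen, had 47.4, 57.7 and 84.4 FPKM in val1 val2 and 71.0, 68.6 and 77.5 FPKM in val1, so the groups overlapped (log2 change -0.23, SE 0.22, adjusted p = 0.408).

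Without val1 val2 replicate 3 and val1 replicate 1, the 2 libraries with an unbroken VAL1 locus, 7 of 7 storage protein genes, 7 of 7 oil body genes and 23 of 27 late embryogenesis genes were called higher. Lower were 28 of 31 photosystem genes, 20 of 21 Calvin cycle genes and 8 of 10 chlorophyll synthesis genes. Of all 17078 genes tested in that setting, 4091 were called higher and 5118 lower.

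**Figure D3:**
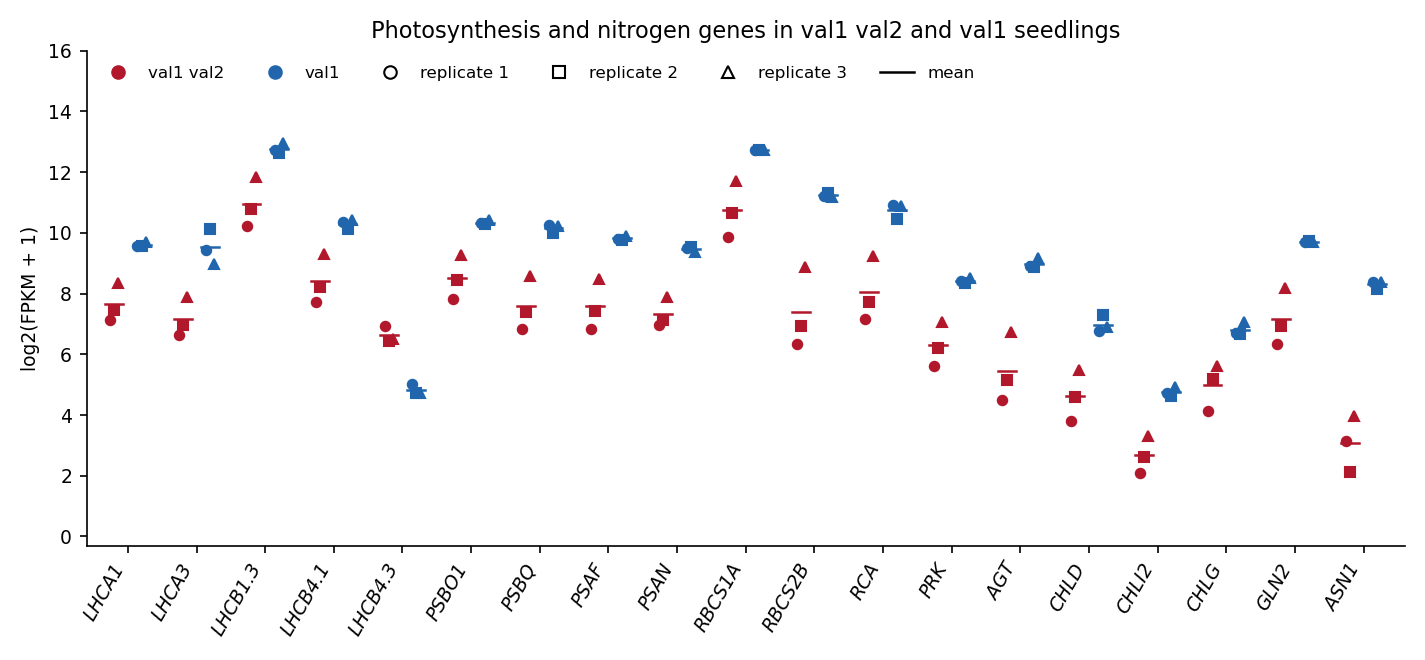
Levels of 17 photosynthesis genes and 2 nitrogen genes, GLN2 and ASN1, in the val1 val2 libraries (red, left of each pair) and the val1 libraries (blue), as log2(FPKM + 1), with a bar at the mean and a symbol for each replicate number. LHCB4.3 is the one gene of these with val1 val2 above val1, and replicate 3 (triangle) is the val1 val2 value nearest to val1 in most of the others.

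In the flowering time list, 1 of 11 tested genes rose and 7 fell, against 23.1% and 28.4% of all genes. FLC, the MADS-box repressor of flowering and a known target of both VAL proteins, stood at 195, 221 and 184 FPKM in val1 val2 and 24.5, 39.5 and 20.9 FPKM in val1, with means of 4.27 FPKM in val2 and 4.31 FPKM in WT (log2 change 2.82, SE 0.24, adjusted p = 0.000321). SVP, a MADS-box repressor that acts together with FLC, went the other way, with 3.58, 4.97 and 9.02 FPKM in val1 val2 and 51.5, 48.6 and 52.8 FPKM in val1 (log2 change -3.00, SE 0.28, adjusted p = 0.000451). SOC1, a promoter of flowering repressed by both, had 0.810, 0 and 1.89 FPKM in val1 val2 and 11.3, 10.4 and 15.5 FPKM in val1 (log2 change -2.93, adjusted p = 0.00162). FT, the mobile flowering signal, was listed at 0 in every val1 val2 library and at 1.38, 2.22 and 2.25 FPKM in val1 (adjusted p = 0.000932). Of FLC's close relatives, MAF5 had 35.5, 36.2 and 29.9 FPKM in val1 val2 and 38.4, 33.2 and 34.6 FPKM in val1, overlapping groups (log2 change -0.06, SE 0.13, adjusted p = 0.711), although val2 and WT averaged 7.70 and 10.2 FPKM. MAF5 was chosen after its values were seen.

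Floral MADS-box genes stayed low, and 7 of 13 were listed at 0 in all 6 libraries, among them AG, AP1 and AP3. SEP2 stood at 7.22, 6.98 and 1.45 FPKM in val1 val2 and SEP1 at 1.70, 2.01 and 1.5 FPKM, both at 0 in val1 (adjusted p = 0.00642 and 0.000594). SEP4 was listed at 0 in val1 val2 and at 2.45, 2.43 and 1.95 FPKM in val1 (adjusted p = 0.000302). These 3 were the only calls among the 6 tested members of the list, against 51.5% of all genes called.

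Of 19 tested Polycomb genes and known partners of the VAL proteins, 5 were higher and 4 lower, near the 23.1% and 28.4% of all genes, so that the counts are no result about the list. Without val1 replicate 2, 3 were higher. The median log2 change was -0.08. VIN3, the cold-induced PHD protein that nucleates silencing at FLC, stood at 6.65, 6.97 and 8.38 FPKM in val1 val2 and at 0 in val1, val2 and WT (log2 change 3.05, SE 0.14, adjusted p = 3.47e-05). LHP1, which reads the Polycomb mark, had 10.3, 10.9 and 10.1 FPKM in val1 val2 and 26.4, 29.7 and 19.8 FPKM in val1 (log2 change -1.19, adjusted p = 0.00214). RING1B, of the PRC1 complex, had 16.5, 16.7 and 16.5 FPKM in val1 val2 and 8.60, 6.16 and 7.82 FPKM in val1 (log2 change 1.05, SE 0.15, adjusted p = 0.00196). VEL1, a relative of VIN3, stood at 16.0, 15.2 and 26.1 FPKM in val1 val2 and 44.1, 42.4 and 48.8 FPKM in val1 (log2 change -1.24, adjusted p = 0.00465). The methyltransferase genes were closer together: CLF had 3.61, 4.79 and 5.02 FPKM in val1 val2 and 7.82, 7.61 and 7.29 FPKM in val1 (log2 change -0.66, adjusted p = 0.0123), and the values of SWN overlapped (adjusted p = 0.518). CLF and SWN were chosen after their values were seen.

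Meristem and embryo patterning genes rose in 10 of 13 tested members, against 23.1% of all genes, and fell in 2. BBM, an AP2 factor able to induce embryos on seedlings, stood at 38.9, 28.6 and 21.8 FPKM in val1 val2 and 0.546, 0.919 and 0.526 FPKM in val1 (log2 change 4.18, SE 0.23, adjusted p = 6.25e-05). CUC1, which sets organ boundaries, had 21.8, 14.2 and 12.6 FPKM in val1 val2 and 1.55, 1.89 and 2.19 FPKM in val1 (log2 change 2.55, adjusted p = 0.000344). WOX5, of the root stem cell niche, stood at 27.3, 28.2 and 10.8 FPKM in val1 val2 and 2.63, 3.69 and 3.15 FPKM in val1 (log2 change 2.37, adjusted p = 0.00274). The shoot meristem peptide gene CLV3 had 8.17, 3.55 and 2.90 FPKM in val1 val2 and 0 in val1 (adjusted p = 0.00162), while its receptor gene CLV1, chosen after its values were seen, fell to 8.10, 7.76 and 12.8 FPKM in val1 val2, against 23.9, 23.8 and 24.9 FPKM in val1 (adjusted p = 0.00283).

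**Figure D4:**
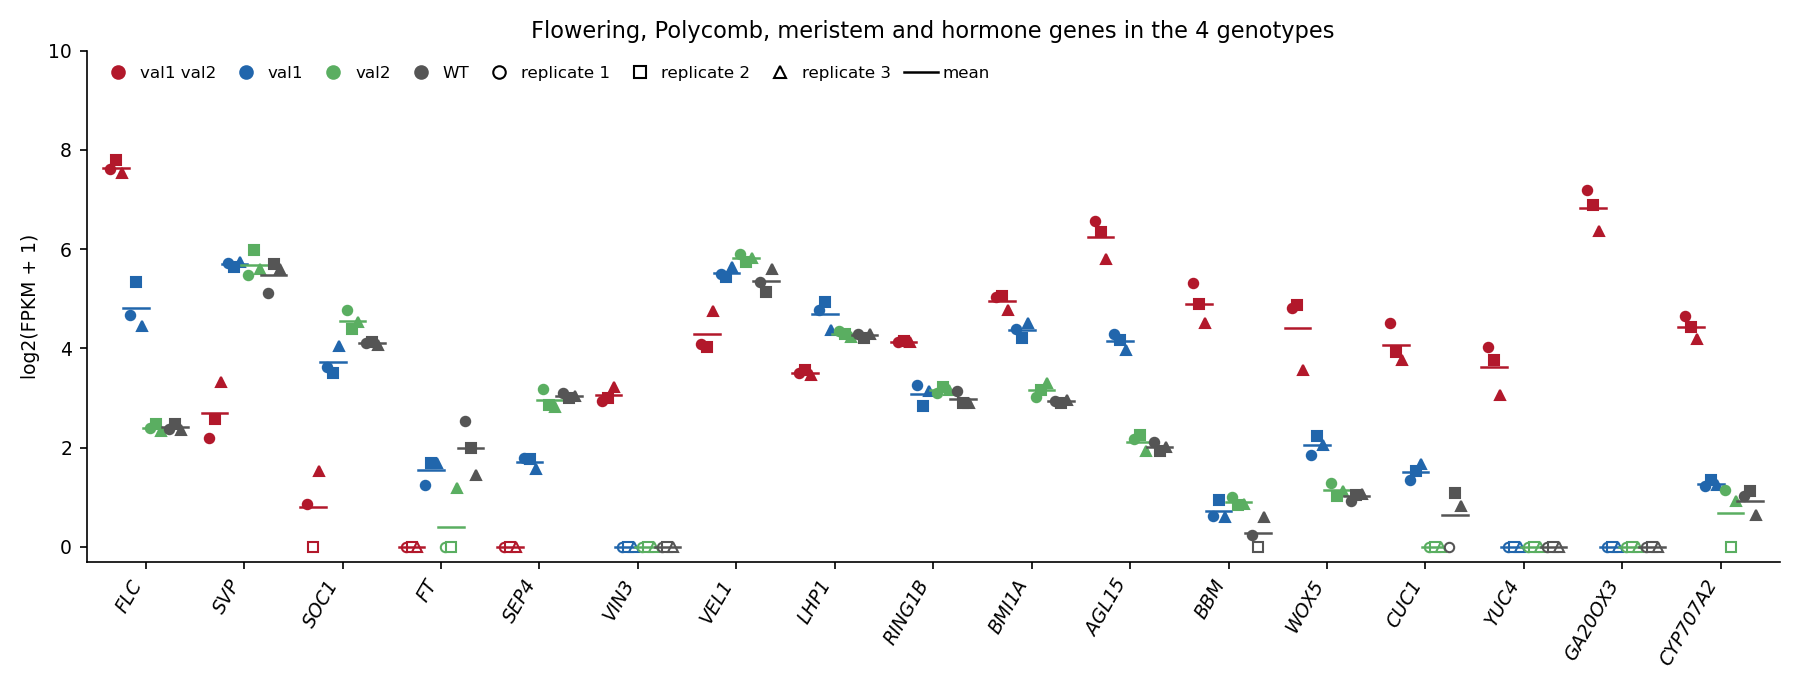
Levels of 17 flowering, Polycomb, meristem and hormone genes in the libraries of val1 val2 (red), val1 (blue), val2 (green) and WT (grey), as log2(FPKM + 1), with a bar at each mean, a symbol for each replicate number and open symbols at 0. FLC and AGL15 stand highest in val1 val2, lower in val1 and lowest in val2 and WT, while VIN3, YUC4 and GA20OX3 are listed at 0 in all libraries other than val1 val2.

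Among hormone genes, 4 of 8 tested for auxin synthesis rose, against 23.1% of all genes, from YUC4 at 15.4, 12.7 and 7.36 FPKM in val1 val2 and 0 in val1 (adjusted p = 0.000159) to the low YUC3, YUC5 and YUC9, which were each lost under 3 or more alternatives. The count of higher auxin genes ran from 1 to 6 across the alternatives and was 1 without val1 val2 replicate 2.

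In abscisic acid metabolism and signalling 9 of 16 tested genes rose and 3 fell, against 23.1% and 28.4% of all genes. CYP707A2, the main enzyme of abscisic acid breakdown in seeds, stood at 24.2, 20.5 and 17.3 FPKM in val1 val2 and 1.36, 1.53 and 1.37 FPKM in val1 (log2 change 3.15, SE 0.16, adjusted p = 4.01e-05). NCED9, a synthesis gene of seeds, stood at 4.77, 6.89 and 6.79 FPKM in val1 val2 and at 0 in val1 (adjusted p = 8.62e-05), so a gene of breakdown and one of synthesis rose together. The phosphatase genes HAI3 (7.65, 3.41 and 2.35 FPKM) and AHG1 (5.98, 5.23 and 1.07 FPKM in val1 val2), which restrain the response, were both at 0 in val1. The falls were less than 2-fold, and 0 or 1 gene was lower on leaving out any 1 library other than val1 val2 replicate 3.

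In gibberellin metabolism 7 of 12 tested genes rose and 1 fell, against 23.1% and 28.4% of all genes. GA20OX3, of the oxidases that make gibberellin precursors, stood at 145, 118 and 82.0 FPKM in val1 val2 and at 0 in the other 9 libraries (log2 change 6.82, SE 0.22, adjusted p = 1.04e-05). GA1, the first step of the pathway, had 5.53, 6.79 and 3.09 FPKM in val1 val2 and 0 in val1 (adjusted p = 0.000528), and GA2, the next step, 15.8, 16.0 and 12.9 FPKM in val1 val2 and 3.39, 3.19 and 3.29 FPKM in val1 (adjusted p = 0.000168). The single fall was GA3OX1, which makes the active hormone, listed at 0 in val1 val2 and at 2.14, 1.54 and 1.60 FPKM in val1 (adjusted p = 0.000688), a gene chosen after its values were seen.

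Markers of other tissues were set beside these changes. Of 12 tested root markers, 7 fell and 1 rose, against 28.4% and 23.1% of all genes, with a median log2 change of -1.0. The list took 0.118 to 0.219% of the summed gene FPKM in val1 val2 and 0.204 to 0.210% in val1. IRT1, the root iron transporter, was listed at 0 in val1 val2 and at 21.9, 6.37 and 12.6 FPKM in val1 (adjusted p = 0.000678). PRP3, a root hair wall protein, fell to 12.3, 11.5 and 14.8 FPKM in val1 val2, against 47.3, 30.7 and 36.6 FPKM in val1 (log2 change -1.49, adjusted p = 0.00143). PYK10, the abundant root glucosidase and chosen after its values were seen, had 866, 995 and 1684 FPKM in val1 val2 and 1439, 1353 and 1437 FPKM in val1, overlapping groups (adjusted p = 0.362). Seed coat markers were near 0 in both groups, with 5 of 6 at 0 in all 6 libraries and TT8 at no more than 0.751 FPKM. Of 9 endosperm markers, 5 were at 0 in all 6 libraries and 2 were tested. Of those 2, 1 was called, where 51.5% of all genes were called, so the count is no result about the list. It was EPR1, an extensin-like protein of the endosperm, at 59.9, 95.4 and 85.4 FPKM in val1 val2 and 0 in val1 (adjusted p = 8.95e-06). The part of tissue makeup in the other results was not tested.

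Of 13 tested cell division genes 7 rose, 1 of them by at least 2-fold, against 23.1% and 14.7% of all genes, and the median log2 change was 0.50. Leaving out 1 library gave 4 to 6 higher genes, with 4 without val1 val2 replicate 1, val1 replicate 2 or val1 replicate 3. CDKB1;1, a mitotic kinase, stood at 9.76, 8.70 and 8.93 FPKM in val1 val2 and 3.31, 3.20 and 4.58 FPKM in val1 (log2 change 1.12, SE 0.16, adjusted p = 0.00205). CDKB2;2 had 17, 13.9 and 15.5 FPKM in val1 val2 and 7.82, 8.09 and 6.65 FPKM in val1 (adjusted p = 0.00242). The call of CYCB1;1 (adjusted p = 0.0473), with a missing value in each group, was lost under 6 alternatives.

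In the stress and defence list 7 of 16 tested genes rose and 3 fell, against 23.1% and 28.4% of all genes. PR1, a marker of salicylic acid responses, stood at 471, 364 and 243 FPKM in val1 val2 and at 0 in the other 9 libraries (adjusted p = 8.33e-06), and PR2, another, at 62.4, 58.7 and 44.4 FPKM in val1 val2 and 0 in those 9 (adjusted p = 8.33e-06). ADH1, the alcohol dehydrogenase of low oxygen, had 1272, 951 and 480 FPKM in val1 val2 and 21.1, 33.3 and 10.7 FPKM in val1 (log2 change 5.33, SE 0.49, adjusted p = 0.000419). PR5, also a salicylate marker and chosen after its values were seen, had 8.15, 8.53 and 5.29 FPKM in val1 val2 and 4.81, 7.89 and 6.98 FPKM in val1, overlapping groups (adjusted p = 0.653).

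Of 7 amino acid storage enzymes 2 were higher and 5 lower, against 23.1% and 28.4% of all genes. The count of lower genes was 2 without val1 replicate 1 and 3 without val1 val2 replicate 1 or 2 or val1 replicate 2 or 3. ASN1, the asparagine synthetase of dark and starvation responses, fell to 7.77, 3.38 and 14.8 FPKM in val1 val2, against 331, 282 and 334 FPKM in val1, a ratio of val1 to val1 val2 means of 36.5 (log2 change -5.22, SE 0.44, adjusted p = 0.000288). The plastid glutamine synthetase GLN2 fell to 80.4, 122 and 289 FPKM in val1 val2, against 837, 851 and 827 FPKM in val1 (log2 change -2.56, adjusted p = 0.0042). GLN1;3, a cytosolic form, rose to 164, 211 and 178 FPKM in val1 val2, against 63.5, 67.2 and 73.3 FPKM in val1 (log2 change 1.42, adjusted p = 0.000588). The call of ASN2 (adjusted p = 0.0269) was lost on leaving out any of 5 libraries (0.0707 to 0.0921).

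Common reference genes were not all stable. ACT2 stood at 86.3, 112 and 263 FPKM in val1 val2 and 672, 598 and 677 FPKM in val1 (log2 change -2.24, SE 0.40, adjusted p = 0.00483), and -2.09 and -2.23 under median ratio and quantile scaling. ACT8 fell by 1.43 on the log2 scale (adjusted p = 0.00879), while ACT7 rose (log2 change 0.90, adjusted p = 0.0219) and lost its call without any of 4 single libraries. Of 8 tested reference genes 4 were not called, where 51.5% of all genes were called. The count of higher reference genes was 2 with all libraries, 0 without val1 val2 replicate 2 and 1 without any val1 library.

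The largest changes lay partly outside the lists. Among the 10 largest rises of genes with a value in all 6 libraries, 4 genes had no place in a list and were listed at 0 in all 9 other libraries. AT5G38160 stood at 4314, 3960 and 1404 FPKM in val1 val2 (log2 change 11.49, SE 0.42, adjusted p = 1.47e-05), AT4G33145 at 4108, 2473 and 877 FPKM, AT5G38170, the neighbour of the first on the chromosome, at 1586, 1095 and 530 FPKM, and LCR67, a plant defensin, at 1066, 1169 and 675 FPKM. SESA3, with 2 values in val1 val2, would rank among them at a log2 change of 9.83. From a base of at least 10 FPKM in val1, the largest rises were those of SESA1 to SESA4, each with a missing value, and CRC and OLEO3, given above. Next, the defensin PDF2.1 reached 3678, 2732 and 1167 FPKM in val1 val2, against 19.0, 12.2 and 15.9 FPKM in val1 (log2 change 7.11, adjusted p = 8.13e-05). NIT2, a nitrilase, reached 598, 847 and 745 FPKM in val1 val2, against 11.1, 10.7 and 14.5 FPKM in val1 (log2 change 5.80, adjusted p = 1.04e-05).

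In total 180 genes were listed at 0 in every val1 library and reached 10 FPKM in every val1 val2 library, and 145 genes reached 10 FPKM in every val1 val2 library with 0 in all 9 others. The reverse, 0 in every val1 val2 library and at least 10 FPKM in every val1 library, held for 7 genes.

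Of the 10 largest falls of genes with a value in all 6 libraries, ASN1 and WRI4 were described above. NdhL, a subunit of the chloroplast NADH dehydrogenase-like complex, was listed at 0 in val1 val2 and at 156, 84.6 and 131 FPKM in val1 (log2 change -6.92, SE 0.23, adjusted p = 1.22e-05). FBA5, a fructose-bisphosphate aldolase, had 0.426, 0.767 and 2.27 FPKM in val1 val2 and 66.8, 47.1 and 63.0 FPKM in val1 (log2 change -4.88, adjusted p = 0.00012). RbcX1, a chaperone of Rubisco assembly, had 0, 0 and 8.22 FPKM in val1 val2 and 61.8, 55.4 and 59.7 FPKM in val1 (adjusted p = 0.0045). BT1, a BTB and TAZ domain protein of nitrogen responses, fell to 4.16, 3.65 and 17.2 FPKM in val1 val2, against 192, 186 and 195 FPKM in val1 (log2 change -4.66, adjusted p = 0.000777). AT2G33830, annotated as dormancy associated, had 49.2, 39.2 and 132 FPKM in val1 val2 and 1618, 1199 and 1659 FPKM in val1 (log2 change -4.52, adjusted p = 0.000542). AT2G04039 was listed at 0 in val1 val2 and at 34.7, 21.8 and 32.5 FPKM in val1. AT4G22505 had 0, 0.620 and 12.5 FPKM in val1 val2 and 58.7, 53.6 and 63.5 FPKM in val1, and AT4G22495, which overlaps it nearly wholly so that the 2 cannot be told apart, had nearly the same values.

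Whether these changes are those that the val2 mutation makes in any background was tested as an interaction, the change from val1 to val1 val2 minus the change from WT to val2, 2 contrasts that share no library. Of 17826 genes tested over all 12 libraries, 3776 (21.2%) had a higher change in val1 than in WT and 4521 (25.4%) a lower one. This fit pools the spread of all groups. Val1 val2 libraries varied more than val1 libraries, with a median standard deviation of 0.27 against 0.13 on log2(FPKM + 1). The pooled spread can therefore understate the error of val1 val2, and the adjusted p and counts of the interaction can look firmer than they are. All 11 tested storage protein genes, 7 of 8 oil body genes, 3 of 3 tested LAFL regulators (LEC1, FUS3 and ABI3) and 23 of 27 late embryogenesis genes were called higher. Genes listed at 0 in all val2 and WT libraries, among them these 3 regulators and other members of the seed lists, had no change there. Their interaction equals the change from val1 to val1 val2 and adds nothing to that result. Of the photosystem list 27 of 30 were called lower, and of the Calvin cycle list 19 of 20.

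Of 109 named genes with a test of the interaction, 100 were called, and single genes show the size of the difference. FLC changed by 2.82 on the log2 scale in val1 and by -0.01 in WT (interaction 2.83, limma adjusted p = 1.71e-05). CRA1 changed by 9.68 in val1 and 1.31 in WT, with means of 1.49 FPKM in val2 and 0 in WT (interaction 8.37, adjusted p = 1.99e-09). PSBQ changed by -2.56 in val1 and 0.08 in WT (interaction -2.64, adjusted p = 0.00112). VAL2 itself changed by -0.06 in val1 and -0.90 in WT (interaction 0.84, adjusted p = 0.00429). Among the genes not called, FT changed by -1.55 in val1 and -1.60 in WT (interaction 0.05, adjusted p = 0.939). PRP3 changed by -1.49 in val1 and -1.14 in WT (interaction -0.35, adjusted p = 0.273). A missing call does not show that the changes are equal.

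For ASN1, COR15A and KIN2 the differences had opposite signs in the 2 backgrounds. ASN1 averaged 204 FPKM in val2 and 70.8 FPKM in WT, a log2 difference of 1.63, against -5.22 in val1 (interaction -6.85, adjusted p = 1.49e-05). The cold-induced gene COR15A stood at a mean of 56.8 FPKM in val2 and 0.850 FPKM in WT, and at 0, 1.17 and 0 FPKM in val1 val2 and 1.40, 1.75 and 4.47 FPKM in val1 (interaction -6.29, adjusted p = 5.13e-05). KIN2, another cold-induced gene, averaged 412 FPKM in val2 and 110 FPKM in WT, and had 23.7, 24.4 and 23.0 FPKM in val1 val2 and 96.9, 84.2 and 103 FPKM in val1 (interaction -3.84, adjusted p = 3.74e-06). VSP2, a jasmonate-induced storage protein of leaves, was higher in both backgrounds, but by a larger step in WT: it averaged 55.6 FPKM in val2 and 4.2 FPKM in WT, whereas val1 val2 had 4.96, 5.97 and 5.61 FPKM and val1 1.98, 1.24 and 3.21 FPKM (interaction -2.38, adjusted p = 0.000192). WRKY18, a transcription factor of defence, averaged 4.87 FPKM in val2 and 43.5 FPKM in WT, and had 18.8, 48.3 and 91.4 FPKM in val1 val2 and 23.1, 22.1 and 23.1 FPKM in val1 (interaction 3.84, adjusted p = 0.00044). COR15A, KIN2, VSP2 and WRKY18 were chosen after their values were seen.

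**Figure D5:**
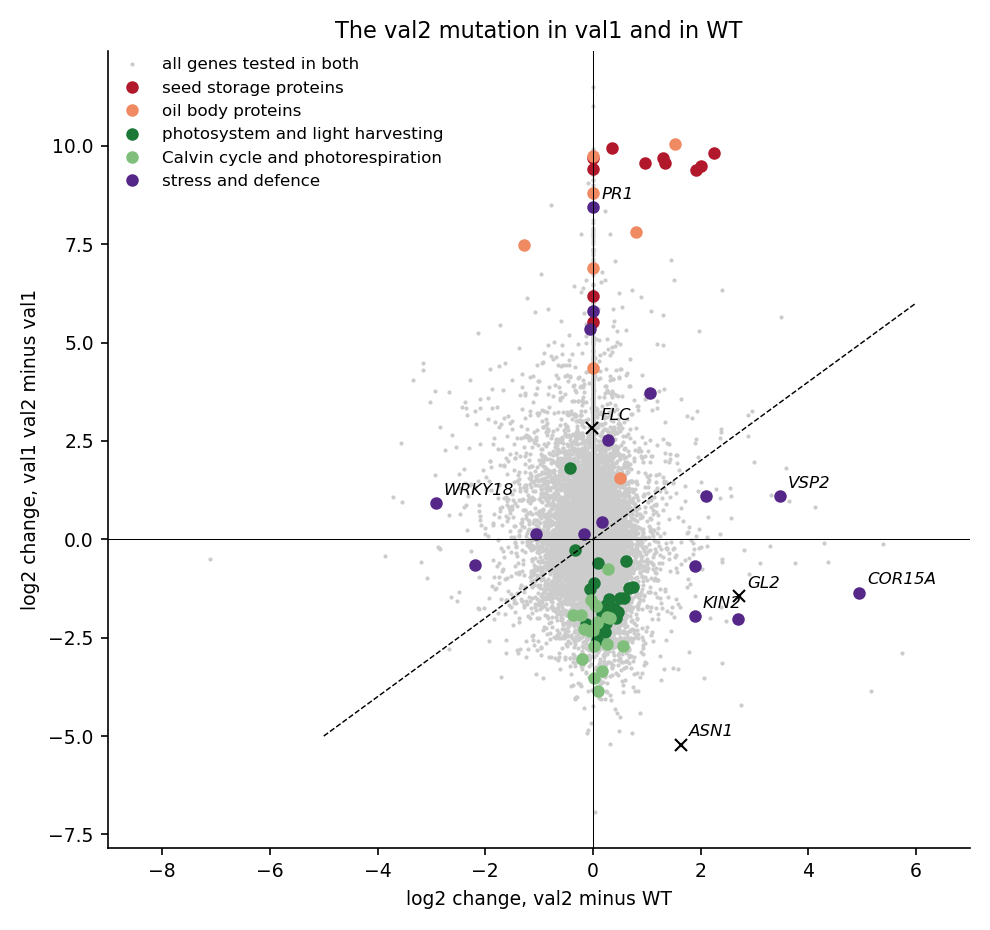
Log2 change of each gene between val1 val2 and val1 (y axis) against its log2 change between val2 and WT (x axis), both on log2(FPKM + 1), for all genes with a test of the interaction (grey), with 5 gene lists in colour and crosses for FLC, ASN1 and GL2; the dashed line marks equal change. Storage and oil body genes reach 10.04 on the y axis, with list medians of 0.96 and 0 on the x axis, photosystem and Calvin cycle genes below the horizontal axis, and COR15A and VSP2 far to the right, where the change in WT exceeds that in val1.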

How the data were processed

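RNA of 14-day-old seedlings was sequenced in 12 libraries, of which 6 enter the main comparison. The deposited values are FPKM per assembled locus, which the authors made with Cufflinks for each library separately, per the file headers. Besides Cufflinks 2.2.1 and TopHat2 2.1.1, Cuffdiff, MACS2 and the build TAIR10 stand in the submitters' processing notes, with no roles. FPKM are relative to the total of a library, so very abundant transcripts lower all others. The files give no fragment counts, so the depth behind each value is unknown, and they list 19164 to 20293 loci per library with none at 0.

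Loci were assigned by position to 27444 protein-coding genes of the RefSeq table of TAIR10.1, and a gene's value weights the FPKM of each locus on it by the fraction of the gene's length covered and adds them up. Values of 3968 genes were left missing in at least 1 library because a locus spanned several genes, and 215 values because a locus was absent while both other replicates reached 10 FPKM. The test was that of limma 3.58.1 (R 4.3.3; two-sided, with a mean-dependent prior) on log2(FPKM + 1) for genes that reached 1 FPKM in 3 libraries or more and had 2 values or more per group, over the 6 libraries, or all 12 for the interaction, with Benjamini-Hochberg adjustment over all genes and calls at an adjusted p under 0.05. Only the fit was tried on simulated data, with few changed genes, no missing values and the same spread for all genes of a group. That setting is simpler than these data, so it cannot vouch for the calls. Genes were handled in Python 3.11.15 with numpy 2.4.6 and pandas 2.3.3, and figures drawn with matplotlib 3.10.9.

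The 26 gene lists (381 genes, 307 tested) and the rules for naming genes were chosen with earlier results of these data known, so a list's count is a description, to be read against the share of all genes called, and was not tested. The rule named VAL1 to VAL3, the 10 largest rises and falls without overlap and the 5 largest rises from at least 10 FPKM in val1, all among genes with 3 values in each group, the 4 largest changes of each list and all LAFL regulators. Alternatives covered the pseudocount, the filter, the scaling, library weights, the replicate block, missing values, the value of a gene and the loss of each library. Replicate numbers of the titles did not pair the libraries. File names of val1 replicates 2 and 3 disagree with the titles, which were followed, so those 2 libraries may be exchanged. Genome binding data of the series were not used here.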

Additional observations from a re-analysis of the deposited data

Results flagged for a closer look

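With 3 libraries in each group no value could be tested as an outlier. The results picked out are differences of the val2 effect between the val1 and the WT background. By limma over all 12 libraries, 3776 genes had a higher change in val1 than in WT and 4521 a lower one. ASN1, the asparagine synthetase gene, had an interaction of -6.854 on the log2 scale (limma adjusted p = 1.49e-05): it fell in val1 val2 against val1 and had a log2 change of 1.63 in val2 against WT. GL2, a regulator of root hair and trichome cells, had an interaction of -4.165 (limma adjusted p = 7.78e-07), with 2.24, 2.12 and 3.33 FPKM in val1 val2 and 11.5, 7.53 and 7.26 FPKM in val1, against a mean of 5.61 FPKM in val2 and 0 in WT. Its log2 change of 2.72 from WT to val2 rests on a 0 in every WT library. A 0 means that no assembled locus was assigned to GL2 there, which need not be absence of its transcript.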

How the results depend on the processing

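Of 107 named genes called between val1 val2 and val1, 96 kept their call under every alternative run. Over all alternatives 46 of 2040 values of named genes lost a call, 7 gained one, all of VAL1, and none changed direction. In the interaction 25 of 1822 values lost a call and none changed direction. A pseudocount of 5 FPKM gave 3384 genes called by at least 2-fold. Weights per library gave 13601 genes called, 7944 of them lower. Those weights were 20.7 for val1 val2 replicate 2, 0.258 for replicate 1 and 0.142 for replicate 3, against 0.912 to 1.46 for val1 libraries. In that fit the val1 val2 group thus rested almost wholly on replicate 2, so its count should not be read as one from 3 replicates. The cause of these shifts was not tested. The fit of all 12 libraries called 10349 genes. Leaving out 1 library gave 6724 to 10555 genes called, 3332 to 4471 higher, 3381 to 6084 lower and 4713 to 6224 by at least 2-fold, and in the interaction 7391 to 9585, of which 3506 to 4134 higher and 3847 to 5451 lower. Among these single omissions the highest count, 10555, came without val1 val2 replicate 3. Leaving out the 2 libraries with an unbroken VAL1 locus together was chosen after seeing the data.

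The replicate block was run although same-numbered libraries did not deviate together (correlations of 0.018, 0.008 and 0.057 over 16551 genes): it gave 8198 calls in the main comparison and 8159 in the interaction. Of 988 counts of list members 78 moved by over 1.5 times. Precision rests on 3 libraries a group and on an unknown depth. Genes listed at 0 are those with no locus assigned to them, also where a locus lay partly on them and was assigned to a neighbour. A 0 is therefore not proof that a gene was silent. A share of promoters with B3 binding elements was planned and not run.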

Other observations

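Beyond the lists, gene families were grouped by the letters their RefSeq symbols share, among those with at least 10 members tested, and the ones named here were chosen after their values were seen, without a test. Shared letters do not prove kinship, so a group can hold unrelated genes, such as TCP-1 among the TCP symbols. Of all genes tested, 14.7% rose and 15.7% fell by at least 2-fold in val1 val2 against val1. Of 14 PTAC genes, whose proteins belong to the plastid transcription machinery, 13 fell by at least 2-fold. PTAC3 stood at 3.93, 6.75 and 11.6 FPKM in val1 val2 and 48.8, 27.8 and 60.2 FPKM in val1 (log2 change -2.51, limma adjusted p = 0.0036). Of 12 HCF genes, named for high chlorophyll fluorescence mutants, 8 fell by as much, with HCF136, a photosystem II assembly factor, at 26.8, 32.4 and 70.4 FPKM in val1 val2 and 169, 203 and 171 FPKM in val1. Of 14 genes with TCP symbols, most of them transcription factors of leaf and shoot growth, 9 fell by at least 2-fold. Foremost was TCP14 with 2.47, 4.21 and 9.64 FPKM in val1 val2 and 59.3, 53.7 and 57.9 FPKM in val1 (log2 change -3.33, limma adjusted p = 0.000991). Of 14 FLA genes, which encode arabinogalactan cell wall proteins, 9 fell.

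Other families split. Among 34 UMAMIT genes, most of them amino acid transporters or close relatives, 9 rose and 16 fell by at least 2-fold. UMAMIT23 had 97.7, 148 and 38.7 FPKM in val1 val2 and 0, 0.655 and 1.24 FPKM in val1, and UMAMIT20 had 1.05, 1.75 and 5.38 FPKM in val1 val2 and 34.1, 28.6 and 26.1 FPKM in val1. Among 15 LBD genes 8 rose and 4 fell: LBD40 had 228, 183 and 110 FPKM in val1 val2 and 1.47, 1.55 and 1.05 FPKM in val1, while LBD37, a repressor of nitrogen responsive genes, had 3.71, 3.60 and 11.2 FPKM in val1 val2 and 132, 61.5 and 135 FPKM in val1. Of 20 genes with ERF symbols, not all of 1 family, 10 rose by at least 2-fold, with ERF71 at 101.3, 97.5 and 53.9 FPKM in val1 val2 and 1.75, 1.51 and 1.71 FPKM in val1. Of 17 EXPA genes, expansins that loosen cell walls, 9 rose by as much and 3 fell. Of 14 PHT genes, phosphate transporters, 7 rose, among them PHT1;4 with 200, 145 and 123 FPKM in val1 val2 and 15.7, 16.2 and 13.3 FPKM in val1.

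A count of 32 genes reached 100 FPKM in every val1 val2 library with under 1 FPKM in every val1 library, and 6 of them belong to a list. Those named here were chosen after their values were seen. MEE26 stood at 968, 865 and 579 FPKM in val1 val2 and 0 in all val1 libraries. ATS3 stood at 435, 668 and 213 FPKM in val1 val2 and 0.900, 0.880 and 0.740 FPKM in val1. GPT2, a plastid glucose phosphate translocator, stood at 321, 284 and 109 FPKM in val1 val2 and 0 in val1, and AOP3, an enzyme of glucosinolate side chains, at 303, 144 and 201 FPKM in val1 val2 and 0 in val1.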
